A study of Drosophila melanogaster with 2 samples.

Results

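Stat92E-GFP occupancy was described at 10 Drosophila cell cycle regulators: the cyclin genes CycA, CycB, CycB3, CycD and CycE, the kinase genes Cdk1 and Cdk4, the phosphatase gene stg (string), the transcription factor gene E2f1 and the kinase inhibitor gene dap (dacapo). The genes are a list of names among 13945 protein-coding genes on 6 chromosome arms, and the rule that gathers their summits uses no signal value. These genes, and the further cell cycle lists below, were however chosen with earlier results of these data known. Every peak summit inside a gene, or within 5 kb of it, was counted for that gene, and all 10 symbols matched the annotation. A window is the gene span plus 5 kb on each side, and the 10 windows together took 193 kb.

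The samples were whole embryos of mixed sex aged 0 to 12 h from a fly line that stably expressed Stat92E with a C-terminal eGFP tag. They formed 1 group with 2 biological replicates, numbered 1 and 3, and no control sample was analysed here. Per the labels, chromatin was sonicated to 200 to 800 bp and precipitated with an antibody to GFP, although the antibody field names Stat92E. Whether the flies also carried untagged Stat92E, and which promoter drove the tagged protein, is not given in the sources used here, and a whole embryo mixes dividing, quiescent and endocycling cells. Peaks were called by the authors on genome build dm6, in each replicate, in both replicates together (the pooled list) and after an IDR threshold (irreproducible discovery rate), which gave the list called the reproducible set here. That set held 3603 peaks, 3601 of them on the arms, and was identical to the 3603 strongest pooled peaks. The pooled list and each replicate list held exactly 30000 peaks, so the weak end of these lists carries little support. Each peak carries a signal score from the authors' files, whose unit is not stated; it ranks peaks within a list here, with rank 1 the strongest. Read depth is unknown.

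Cyclins are the regulatory subunits of cyclin-dependent kinases. In flies CycD with Cdk4 promotes growth and entry into the cycle, CycE with Cdk2 starts S phase, E2f1 activates S-phase genes, dap blocks the CycE kinase, and CycA, CycB and CycB3 with Cdk1 drive mitosis once the stg phosphatase has activated that kinase. Early embryonic cycles run on maternal products; later, zygotic stg transcription sets where and when cells divide, and dap transcription accompanies exit from the cycle. Stat92E is the transcription factor of the fly JAK/STAT pathway, which is known to act on cell proliferation in several fly tissues. It binds TTC and GAA spaced by 3 bases (TTCNNNGAA) and, less well, the same letters spaced by 4 bases.

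Reproducible summits lay at 8 of the 10 regulators (80.0%), against 42.5% of all protein-coding genes called by the same rule. The exceptions were CycD and Cdk1. All 8 had a summit within 1 kb of one of their own transcription start sites (TSS), against 21.3% of all genes, and all 8 were also the gene with the nearest TSS to a reproducible summit, against 18.0% of all genes. E2f1 had 4 reproducible summits, stg 3, CycB, dap and Cdk4 2 each, and CycA, CycB3 and CycE 1 each; 2.41% of all genes had 4 or more. Together these were 16 summits, or 0.831 per 10 kb of the regulators' windows against 0.269 per 10 kb of the arms. These densities are not like for like. Each window holds a gene with its start sites, the arms also take in sequence away from genes, and 65.5% of all reproducible summits lay at promoters. Long genes collect more summits by this rule. In a division by window length made after the data were seen, 6 of the 8 regulators with windows up to 20 kb had a reproducible summit, against 40.1% of all such genes, and both with longer windows, E2f1 and CycE, had one, against 56.8%. In the pooled list 9 of the 10 had a summit, against 76.6% of all genes, so that the pooled list separates the regulators little from other genes. CycD was the exception. The median signal score of the 16 summits was 164, against 160 over the whole reproducible set, so the summits at these genes were of ordinary strength for the set. No test was made of these counts, as the genes were chosen with earlier results of these data known.

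**Figure D1:**
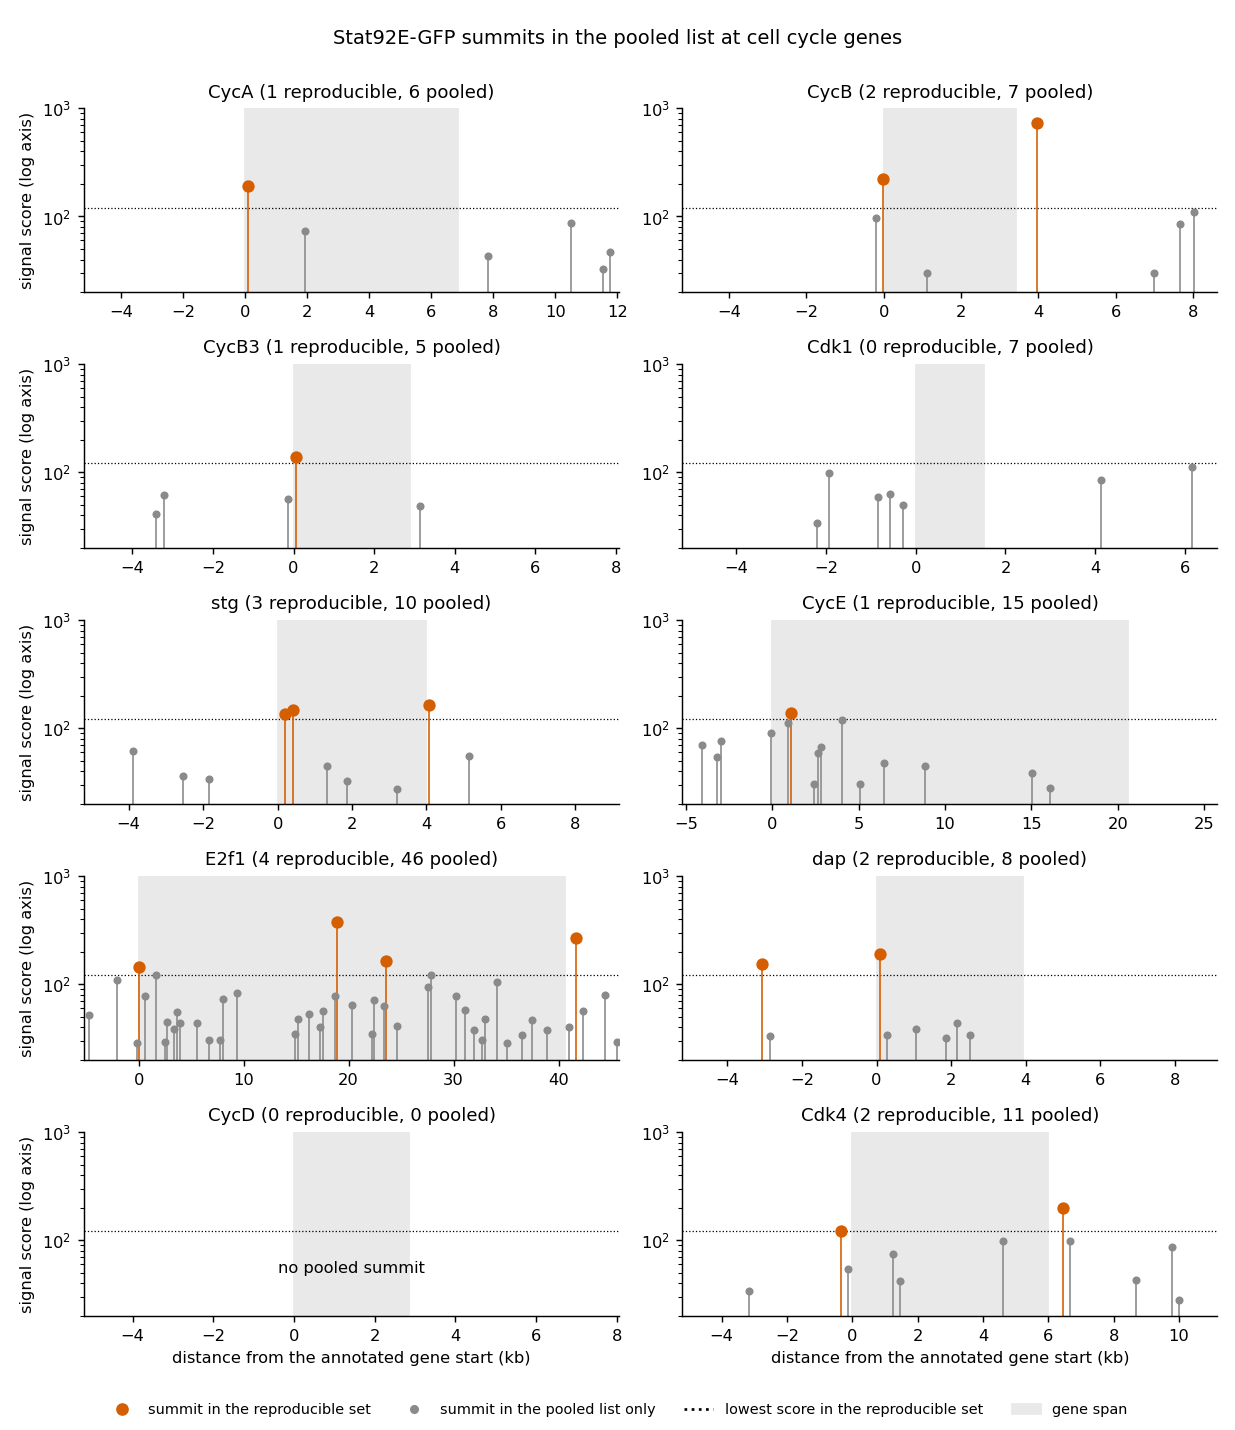
Stat92E-GFP summits of the pooled list at the 10 cell cycle genes. Each panel shows 1 gene, with distance from the annotated gene start in kb along the direction of transcription on the x axis, the authors' signal score on a log y axis, reproducible summits as large orange points, other pooled summits as small grey points, the gene span shaded, and the lowest score of the reproducible set (121) as a dotted line. The CycB summit beyond the gene end (733) and the E2f1 intron summit (379) are the tallest, and the CycD panel has no summit.

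The stg gene, which encodes the Cdc25-type phosphatase that triggers mitosis, was flanked by reproducible summits at both ends (FBgn0003525, dm6 3R 29251826 to 29255800, minus strand). At the 5′ end, summits at 29255393 (pooled rank 2170, score 149) and 29255600 (rank 2710, score 136) lay in the 5′ UTR, 68 bp upstream of and 200 bp downstream of their nearest stg TSS. Their peaks overlapped. Replicate 3 had a summit at each, 3 bp from the summit at 29255393 (29255396, rank 923) and 6 bp from the summit at 29255600 (29255606, rank 4568). Replicate 1 had its stronger peak there at 29255624 (rank 2810), 24 bp from the summit at 29255600, and none within 100 bp of the other. No 3- or 4-base-spacer STAT site lay within 50 bp of either summit. Farther off, but inside these peaks, 3-base-spacer sites lay at 29255253 to 29255261, 136 bp from the summit at 29255393, and at 29255502 to 29255510, 94 bp from the summit at 29255600. The strongest stg summit (29251729, rank 1723, score 163) lay at the other end, 97 bp beyond the annotated gene end and 1278 bp upstream of the TSS of the neighbouring gene SP1029, so its target cannot be told from its position. It ranked 2360 in replicate 1 and 1696 in replicate 3, with summits 1 and 3 bp away. The site TTCTGTGAA lay 7 bp from this summit, and the palindrome TTCCAGGAA lay 78 bp from it at 29251803 to 29251811. Between them, outside the 50 bp window, lay an E2F site by its letters, TTTGGCGC, 53 bp from the summit at 29251778 to 29251785. The 142 bp from 50 bp before the summit to just short of the gene end are shown because this was 1 of only 2 of the 16 summits with a 3-base-spacer site. Sequence here and below is from RefSeq Release 6, the assembly of dm6, written 5′ to 3′ in lower case with STAT sites in capitals.
stg downstream end, chr3R:29251679-29251820, plus strand: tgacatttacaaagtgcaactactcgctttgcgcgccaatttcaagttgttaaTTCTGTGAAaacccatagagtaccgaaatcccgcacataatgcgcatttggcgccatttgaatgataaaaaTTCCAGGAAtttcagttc

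E2f1, the activating E2F factor of the fly, had the most summits of the 10 genes: 4 reproducible and 46 pooled (FBgn0011766, dm6 3R 21620304 to 21660871, minus strand, 40.6 kb). Its strongest summit (21641931, rank 136, score 379) lay in an intron, 18940 bp from the annotated gene start and 3437 bp upstream of the nearest internal E2f1 TSS. It ranked 220 in replicate 1 and 106 in replicate 3, with a score of 187 in each and summits 9 and 1 bp from the pooled one. Both replicates thus placed it among their strongest peaks at almost the same base. Its 101 bp window held 2 abutting 3-base-spacer sites, TTCACGGAA at 21641911 to 21641919 and the palindrome TTCCTGGAA at 21641920 to 21641928, 16 and 7 bp from the summit. A 4-base-spacer site, TTCCTACGAA, lay 44 bp away. Of all 3601 reproducible summits, 0.305% (11 summits) held 2 or more 3-base-spacer sites in such a window and 1.25% held the palindrome. A summit 4 bp upstream of the distal E2f1 start site (21660875, rank 2371, score 145) ranked 2699 in replicate 1 and 2062 in replicate 3 and had the 4-base-spacer site TTCCAAGGAA 14 bp away, in the 5′ UTR. Both stretches are shown because they place STAT sites at the summits of the same gene, in an intron and at a promoter. The promoter stretch is 84 bp and includes 30 bases of the UTR.
E2f1 intron, chr3R:21641881-21641981, plus strand: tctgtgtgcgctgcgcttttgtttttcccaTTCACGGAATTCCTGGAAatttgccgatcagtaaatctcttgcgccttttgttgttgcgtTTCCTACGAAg
E2f1 distal promoter, chr3R:21660842-21660925, plus strand: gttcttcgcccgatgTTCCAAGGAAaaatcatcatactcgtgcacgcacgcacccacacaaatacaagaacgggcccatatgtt

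The other reproducible E2f1 summits held no STAT site within 50 bp of their pooled position, which differed from that in replicate 1. The replicate 1 summit at 21619119 (rank 552) had a 3-base-spacer site 39 bp away. The weaker one at 21637453 (rank 10226) had a 3-base-spacer site 5 bp and a 4-base-spacer site 20 bp away. The replicate 3 summits over the same peaks had none within 50 bp. A further intron summit (21637316, rank 1682, score 164) lay 1178 bp downstream of an internal TSS and ranked 2618 in replicate 1 and 783 in replicate 3. The summit at 21619228 (rank 366, score 271; ranks 552 and 216 in replicates 1 and 3) lay 1076 bp beyond the end of E2f1. It was in the 5′ UTR of InR, the insulin receptor gene, 93 bp from the InR TSS, and counts for E2f1 only through the 5 kb margin. Just below the threshold of the reproducible set, E2f1 had summits of rank 3613 (21659178, intron) and 3617 (21633001, 72 bp downstream of an internal TSS), both with a score of 121. The replicates ordered these differently: the rank 3617 summit had rank 2060 in replicate 1 and 4690 in replicate 3, and the rank 3613 summit had 5999 and 3865. Over the whole window E2f1 had 0.91 pooled summits per kb, the highest of the 10 genes, followed by stg at 0.716 and Cdk4 at 0.688.

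CycE, the cyclin that starts S phase, had 1 reproducible summit (FBgn0010382, dm6 2L 15727581 to 15748150, minus strand, 20.6 kb). No STAT site lay within 50 bp of the pooled position of that summit. The reproducible summit (15747053, rank 2561, score 140) lay in an intron 443 bp upstream of an internal TSS. It ranked 1066 in replicate 1, with the summit 154 bp away, and 4141 in replicate 3, with the summit 5 bp away. The replicate 1 summit was thus nearer to the adjacent pooled summit at 15747255 (rank 4136, score 113), 48 bp from it. That adjacent summit had a 4-base-spacer site, TTCTTCAGAA, 40 bp away. The site, at 15747211 to 15747220, also lay inside the reproducible peak. It was 162 bp from the pooled summit of that peak and 8 bp from the replicate 1 summit at 15747207. Farther into the gene, a summit at 15744132 (rank 3740, score 119) fell just short of the reproducible set. It had the site TTCCAAGAA 36 bp away, and ranked 2504 in replicate 1, with the summit 14 bp away, and 9025 in replicate 3, with the summit 167 bp away. A weaker pooled summit at 15739291 (rank 16773, score 45.3) had 2 sites close by, the palindrome TTCCTGGAA 12 bp and TTCGAAGAA 25 bp away, and ranked 11509 in replicate 1, with the summit 60 bp away. The overlapping peak of replicate 3 (rank 29603) had its summit 333 bp away and ended at 15739179, before the paired sites. Replicate 3 thus listed no peak over these sites. Their 101 bp windows are shown because they hold all 3 of the 12 3-base-spacer sites of the CycE window that lay within 50 bp of a pooled summit.
CycE intron with 1 site, chr2L:15744082-15744182, plus strand: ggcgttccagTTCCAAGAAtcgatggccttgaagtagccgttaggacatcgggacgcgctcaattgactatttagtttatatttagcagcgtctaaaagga
CycE intron with paired sites, chr2L:15739241-15739341, plus strand: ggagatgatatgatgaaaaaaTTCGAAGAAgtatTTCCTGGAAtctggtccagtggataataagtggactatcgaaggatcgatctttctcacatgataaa

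CycD, the partner of Cdk4, had the most STAT sites per kb of the 10 genes and no pooled summit (FBgn0010315, dm6 X 15906822 to 15909676, minus strand). Its window of 12855 bp held 14 3-base-spacer sites, or 1.09 per kb, a density that only 13 of the 13945 genes (0.0932%) reached, the median being 0.292 per kb. They lay in CycD itself, in the sequence upstream and in the neighbouring genes shi and Lrp4. Of those 13 genes, CycD among them, 23.1% had a pooled and 15.4% a reproducible summit, against 76.6% and 42.5% of all genes. Most of them thus had no summit, but 13 genes are few. The nearest pooled summit was at least 8012 bp from any 3- or 4-base-spacer site of the window, and the nearest reproducible summit at least 33916 bp. Single replicates listed weak peaks that overlapped no pooled peak. Replicate 3 had summits 444 bp upstream of the TSS (rank 8287, -log10 q 2.38) and 2955 bp upstream (rank 14777, -log10 q 1.2), with the nearest 3-base-spacer site 491 and 60 bp away. Replicate 1 had 1 summit, 150 bp downstream of the TSS (rank 27926, -log10 q 0.375), with a site 14 bp away. The stretch with 2 sites in 71 bp between CycD and Lrp4 is shown as sequence with STAT site letters and no peak in any of the 4 lists.
CycD upstream, chrX:15910799-15910869, plus strand: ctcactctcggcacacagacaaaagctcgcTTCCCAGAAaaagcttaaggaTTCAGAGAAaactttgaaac

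**Figure D2:**
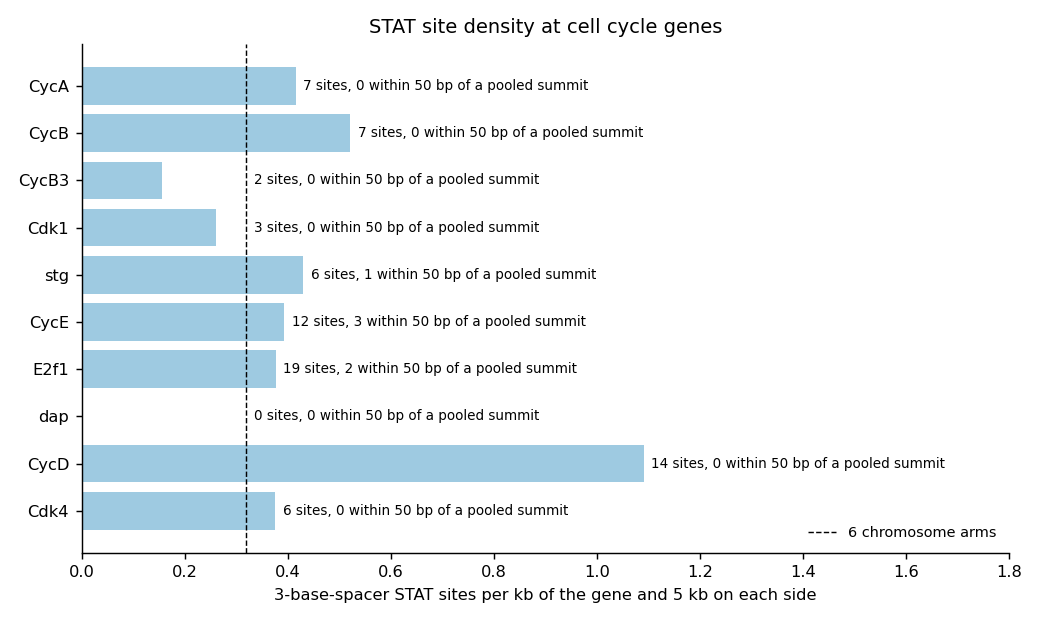
Density of 3-base-spacer STAT sites (TTCNNNGAA, both strands) at the 10 genes, in sites per kb of the gene and 5 kb on each side; the dashed line is the density over the 6 chromosome arms (0.319 per kb). The text at each bar gives the number of sites and how many lay within 50 bp of a pooled summit: CycD has 14 sites and 0 at a summit, CycE 12 and 3, E2f1 19 and 2, and dap has no site.

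Cdk4, the kinase that CycD activates, had reproducible summits on both sides of the gene (FBgn0016131, dm6 2R 16579470 to 16585448, plus strand). The upstream one (16579124, 346 bp before the TSS) was near the lower limit of the set, with rank 3585 and score 121, and ranked 4220 in replicate 1 and 3705 in replicate 3, outside the 3603 strongest of both. The stronger one (16585926, rank 991, score 197) lay 478 bp beyond the gene end and 203 bp upstream of the TSS of RpLP2, a ribosomal stalk protein gene, and ranked 1341 in replicate 1 and 868 in replicate 3. By nearest TSS it belongs to RpLP2. A pooled intron summit (16584082, rank 5313, score 99.5) ranked 11998 in replicate 1 and 2485 in replicate 3. None of the Cdk4 summits held a STAT site within 50 bp, although the window had 6 3-base-spacer sites. Of these, the site at 16579269 to 16579277 lay inside the upstream reproducible peak, 149 bp from its summit. The 2 reproducible windows were poor in G and C, with 16.8% upstream and 21.8% downstream, against a median of 40.6% over all reproducible summit windows. The CycE window was alike at 19.8%, and 4.72% of all windows were at or below 21.8%.

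The dap gene, which encodes the inhibitor of the CycE kinase, had a promoter summit and an upstream one (FBgn0010316, dm6 2R 9712321 to 9716256, plus strand). The promoter summit (9712403, rank 1075, score 192) lay in the 5′ UTR, 82 bp downstream of the TSS, and ranked 1534 in replicate 1 and 1064 in replicate 3. The upstream summit (9709258, rank 1978, score 154) lay 3063 bp before the dap TSS. It was nearer to CG10459, whose TSS was 1722 bp away, and ranked 3389 in replicate 1 and 1526 in replicate 3. The dap window was the only 1 of the 10 with no 3-base-spacer site. It held 4 4-base-spacer sites, none within 50 bp of a summit, so the 2 summits of this gene stood on sequence without STAT site letters in that distance. Both were nonetheless among the 3603 strongest peaks of each replicate.

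CycB, one of the mitotic cyclins, carried the strongest summit of the 10 genes (FBgn0000405, dm6 2R 22803521 to 22806948, minus strand). This summit (22802979) ranked 8 in the pooled list with a score of 733, 23 in replicate 1 (score 407) and 10 in replicate 3 (score 319), and the 3 summit positions lay within 8 bp of each other. It lay in intergenic sequence 542 bp beyond the end of CycB and 3324 bp downstream of the nearest CycB TSS. The windows of 3 other genes, CG42260, blw (an ATP synthase subunit gene) and stl, also take it in, so the rule assigns it to 4 genes. It held no 3-base-spacer site within 50 bp, the nearest being 971 bp away, and a 4-base-spacer site 27 bp away at 22803002 to 22803011. CycB also had a promoter summit (22806953, rank 654, score 224; ranks 581 and 768 in replicates 1 and 3), 5 bp upstream of a CycB TSS. This stretch also lies within 1 kb of the TSS of stl, which is transcribed in the opposite direction. A 3-base-spacer site at 22806872 to 22806880 lay inside the promoter peak, 77 bp from its summit.

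CycA and CycB3, the other mitotic cyclins, each had 1 reproducible summit, in both cases in the 5′ UTR. The CycA summit (FBgn0000404, dm6 3L 11826719 to 11833578, minus strand; summit 11833478, rank 1107, score 190) lay 100 bp downstream of the TSS and ranked 1140 in replicate 1 and 2068 in replicate 3. The CycB3 summit (FBgn0015625, dm6 3R 24867934 to 24870816, minus strand; summit 24870758, rank 2611, score 139) lay 58 bp downstream of the TSS and ranked 3710 in replicate 1, outside its 3603 strongest, and 1962 in replicate 3. Neither held a STAT site within 50 bp. CycA had 2 palindromes in its window, both away from its reproducible summit. One, in CycA coding sequence at 11831775 to 11831783, lay 113 bp from a pooled summit of rank 8698, and the other, at 11826078 to 11826086, lay 350 bp from one of rank 18011.

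Cdk1, the mitotic kinase, had no reproducible summit (FBgn0004106, dm6 2L 10384739 to 10386262, minus strand). Its window held 7 pooled summits, and the strongest were at the promoters of neighbours. The first of these (10380096, rank 4235, score 112) lay 7 bp from the TSS of gny and ranked 4805 in replicate 1 and 4073 in replicate 3. A summit 100 bp downstream of the TSS of da, the gene of the bHLH factor Daughterless (10388205, rank 5436, score 98.4), had rank 2637 in replicate 1 and 12524 in replicate 3. The summit nearest to the Cdk1 TSS was 283 bp upstream of it (rank 14957, score 49.6), between Cdk1 and mRpS7, which starts on the opposite strand. All 3 of the 3-base-spacer sites in the window lay more than 50 bp from any pooled summit.

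Across the genes, 9 of the 16 reproducible summits lay within 1 kb of a TSS of the member gene and 7 lay farther away, and for 12 the member was the gene with the nearest TSS. At 6 genes (CycA, CycB, CycB3, stg, E2f1 and dap) a promoter summit lay within 100 bp of the start site. Over the whole set, 65.5% of summits were promoter summits by the same distance from any protein-coding gene, and 54.6% of those 2358 promoter summits were within 100 bp. In the pooled list, the strongest summits of CycB, E2f1, stg and Cdk4 lay more than 1 kb from the start sites of their genes; for stg this did not hold in replicate 3, where the promoter summit (rank 923) stood above the downstream one (rank 1696). Those of CycA, CycB3, CycE and dap were at a promoter.

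The replicates both listed these summits, and by the ratio of ranks they lay farthest apart for CycE (1066 and 4141 in replicates 1 and 3) and the weaker E2f1 intron summit (2618 and 783). The replicate peak taken for a summit was the strongest one that overlapped its peak. All 16 reproducible summits overlapped a peak in each replicate list, as did 99.0% of all reproducible peaks on the arms, and 13 of the 16 were among the 3603 strongest of both, against 66.1% of all. The 3 others were those of CycB3, CycE and the Cdk4 promoter. With the overlapping peak whose summit was nearest, a choice made after the data were seen, 11 of the 16 were (68.8%), against 60.0% of all. The stg summit at 29255600 then had rank 4568 in replicate 3, and the E2f1 summit in InR had rank 16940 in replicate 1. The reproducible set was derived from these lists, so this overlap is no independent evidence. With the 3603 strongest peaks of replicate 3 alone CycE lost its summit, and with those of replicate 1 alone CycB3 lost its summit and Cdk1 gained 1. Whether the 2 replicates were prepared together is not given in the sources used here.

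**Figure D3:**
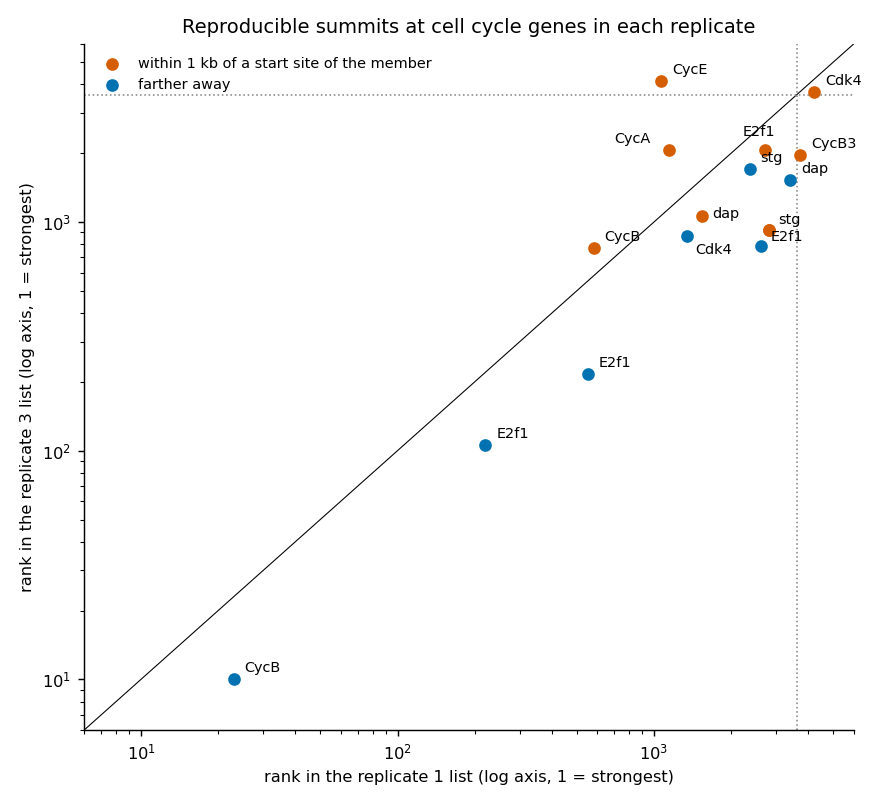
Ranks of the 16 reproducible summits in the replicate 1 list (x axis) and the replicate 3 list (y axis), both on log axes with 1 the strongest; the diagonal marks equal ranks and the dotted lines mark rank 3603. Orange points lie within 1 kb of a start site of the gene and blue points farther away, and, as each summit takes the strongest overlapping replicate peak, the 2 stg promoter summits share 1 point. CycB (23 and 10) and the E2f1 intron (220 and 106) stand at the strong end, and CycE (1066 and 4141) lies farthest above the diagonal.

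STAT sites were found at few of the 16 summits. Within 50 bp, 2 summits held a 3-base-spacer site (the E2f1 intron and the downstream end of stg), 3 held a 4-base-spacer site (the E2f1 intron, the E2f1 distal promoter and the CycB downstream summit), and 4 held either. Over all reproducible summits, 8.72% held the 3-base-spacer site, 6.78% the 4-base-spacer site and 14.8% either. The shares differed by location: either site was in 9.58% of promoter summits and 24.7% of those away from promoters. With promoters of any gene taken in the same way, 1 of the 11 promoter summits and 3 of the 5 others at the regulators held either site. With counts this small, no difference from the whole set could be shown. None of the 16 held the DRE element TATCGATA, core promoter motif 1 or an E2F site (TTTGGCGC, TTTCCCGC, TTTGCCGC or TTTCGCGC) within 50 bp; over all reproducible summits these were in 2.89%, 2.14% and 1.75%. Motifs were searched on both strands, the 3-base-spacer count includes the palindrome TTCCNGGAA, and 3- and 4-base-spacer sites were searched separately.

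Seen from the sites, most STAT site letters at these genes lay more than 50 bp from any pooled summit. A site farther off can still lie inside a peak. At E2f1, 7 of the 19 3-base-spacer sites lay inside a pooled peak and 2 within 50 bp of a pooled summit. The windows held 76 3-base-spacer sites, 0.395 per kb against 0.319 per kb over the arms, and 48 4-base-spacer sites, 0.249 against 0.329 per kb. Of the 76, 6 (7.89%) lay within 50 bp of a pooled summit and 3 (3.95%) within 50 bp of a reproducible one, against 3.56% and 0.818% of all such sites on the arms. Of the 48, 7 (14.6%) and 3 (6.25%) did, against 3.22% and 0.611%. The windows also held more summits per kb than the arms, so sites there had more summits to lie next to. Of 6 palindromes, 1 lay within 50 bp of a reproducible summit (E2f1) and 1 more within 50 bp of a pooled one (CycE), with that of stg 78 bp from a reproducible summit; of the 2466 palindromes on the arms, 1.82% lay at a reproducible and 6.29% at a pooled summit. In the single replicates, a 3-base-spacer site lay within 50 bp of 10 of the 123 summits of replicate 1 and 3 of the 108 of replicate 3 in these windows. A 4-base-spacer site lay within 50 bp of 4 summits in each replicate. The shares over all summits of the replicate lists are not given here, so no difference is read from these counts.

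Further cell cycle genes were counted by the same rules. Of 102 further genes listed in 7 groups, 98 matched the annotation, and 60 of these (61.2%) had a reproducible summit in the gene or within 5 kb, against 42.5% of all genes. Within 1 kb of their own TSS 27 of 98 (27.6%) had one, against 21.3%. By nearest TSS 19 of 98 had one, near the 18.0% of all genes. The 10 regulators kept the same count, 8, under all 3 rules. A summit near a gene's own TSS also counts within 5 kb, so the lower counts near the TSS follow from the rules, for these lists as for all genes.

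**Figure D4:**
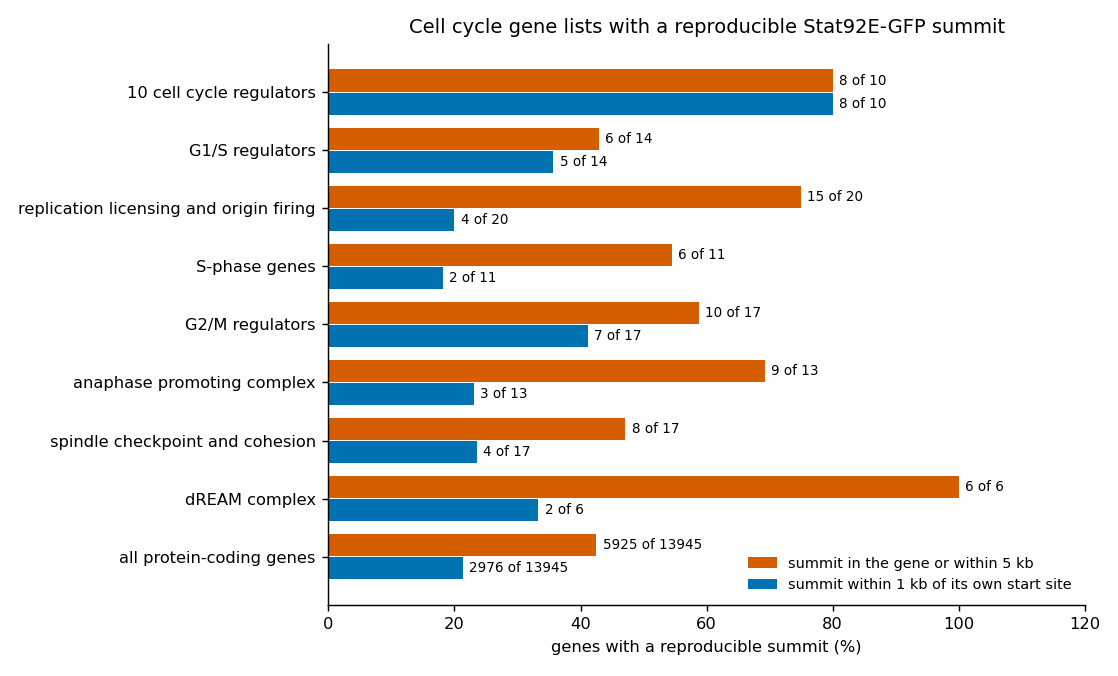
Share of genes in each cell cycle list with a reproducible Stat92E-GFP summit (x axis, percent), in the gene or within 5 kb of it (orange) and within 1 kb of its own start site (blue), with counts at the bars. The 10 regulators are at 8 of 10 by both rules, and the genes in the dREAM list, a part of that complex, at 6 of 6 and 2 of 6. All protein-coding genes are at the foot.

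These counts stand against 42.5% of all genes for a reproducible summit in the gene or within 5 kb, and 21.3% for one at the promoter. The G1/S group had a summit at 6 of 14 genes (42.9%), close to that share, and 5 (35.7%) had one at their own promoter. The strongest were at the retinoblastoma gene Rbf (rank 502), CycG (rank 813) and ago, an F-box gene for CycE turnover (rank 2108). These summits all lay nearest to another gene's TSS. Licensing and origin firing genes had one at 15 of 20 (75.0%), and 4 of 20 had one at their own promoter, near the share of all genes. The strongest was in chif, the fly Dbf4-type activator of Cdc7 (rank 22, score 616, 985 bp upstream of a chif TSS), followed by Orc5 (rank 45) and Orc1 (rank 193), subunits of the origin recognition complex, whose summits lay nearest to CenG1A and Drat. S-phase genes had one at 6 of 11 (54.5%), and 2 (18.2%) at their own promoter. The strongest were those of Slbp at rank 388, RnrS at 605 and PCNA at 1752, each nearest to another TSS. The G2/M group had one at 10 of 17 (58.8%), and 7 (41.2%) at the promoter. There grp, the Chk1-type checkpoint kinase gene, led with rank 250 and 2 3-base-spacer sites within 50 bp of a summit 517 bp from its TSS and nearer to squ. The kinase genes gwl (rank 795) and Wee1 (rank 948) followed, with summits nearest to Mekk1 and nop5.

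In the anaphase promoting complex list, which also took in the activators and the genes Rca1 and vih, 9 of 13 genes (69.2%) had a reproducible summit, against 42.5% of all genes. At the promoter 3 (23.1%) had one, against 21.3%. The subunit genes mr (rank 73, nearest to Sox14), Cdc16 (rank 1498, 109 bp upstream of its own TSS) and Cdc27 (rank 1534, nearest to MED4) were strongest. Spindle checkpoint and cohesion genes had one at 8 of 17 (47.1%), and 4 (23.5%) had one at the promoter. The strongest were those of rod (rank 349), thr, the separase partner gene (rank 608), and SMC1 (rank 755), each nearest to another gene's TSS. All 6 genes in the list for the dREAM complex, which represses E2F targets, had one, and 2 (33.3%) had one at their own promoter. Caf1-55 was at rank 9, mip120 at 374 and lin-52 at 634, and the Caf1-55 summit lay nearest to Art3. The list is not the whole complex, as E2f2, Dp, Rbf and Rbf2 were counted in the G1/S group. Of these, Dp, Rbf and Rbf2 had a reproducible summit and E2f2 had none. Of the 21 strongest summits of the 7 groups named here, only those of chif and Cdc16 had the named gene as the nearest TSS.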

How the data were processed

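Stat92E-GFP ChIP-seq peaks were analysed for 1 group with 2 biological replicates, whose numbers come from the labels. Per the file lists deposited with the samples, the authors called peaks on dm6 in each replicate and in both together against a shared control, and derived the IDR-thresholded list from these. No source used here names the aligner, the peak caller or the thresholds. The columns used were the deposited signal score, which has no stated unit, the deposited -log10 q-value, and the summit. The q column took 1 value, 3.62, throughout the reproducible set and did not rank it. Depth is unknown, and 2 mitochondrial peaks were left out.

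Summits were assigned with Ensembl BDGP6.54.115 gene models, and motifs were searched on RefSeq Release 6 sequence within 50 bp of a summit, with Python 3.11.15, numpy 2.4.6 and pandas 2.3.3; the motif search was checked on simulated sequence. Overlap required 1 bp. No control sample was analysed here, so counts stand beside the same share over all genes, without a test. The members and lists were chosen with earlier results of these data known. All 10 genes were named with every reproducible summit, the strongest pooled summit otherwise, up to 3 genes of each other list by rank, and the nearest neighbours; palindromes and weaker pooled summits with sites were chosen after their values were seen. Alternatives changed the margin, assignment, peak set, replicate, motif window and spacer.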

Additional observations from a re-analysis of the deposited data

How the results depend on the processing

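The count of regulators with a reproducible summit (8) ranged from 6 to 9 over the alternatives: 6 for the gene span only and for the stricter 50% of peaks by signal, 8 with margins of 2 kb and 10 kb, and 9 with the whole pooled list. Leaving out a replicate gave 7 to 8 regulators, and 6 with a promoter summit in either case. CycB and Cdk4 had no summit inside the gene span. The number of member summits (16) was 8 with the gene span only, 9 with the stricter peaks and 115 with the whole pooled list. Other cell cycle genes with a summit (60 of 98) numbered 11 with the gene span only, 19 by nearest TSS, 32 with the stricter peaks and 95 with the whole pooled list. Member summits with a 3-base-spacer site (2) numbered 4 with 100 bp on each side, 8 with 200 bp, 4 with either spacer, 1 with the palindrome only, 4 with the whole pooled list, and 2 to 4 when a replicate was left out. These settings change the window, the list length, the motif letters or the assignment rule itself; for the values without a replicate the cause was not tested. Summits shared by both replicates ranged from 11 to 16, the lowest with replicate peaks matched by nearest summit, an alternative chosen after seeing the data. Of 42 alternative counts, 29 were within 1.5 times the reported one, as were 11 of 36 alternative ranks; ranked by q, each of the 9 regulators with a pooled summit tied at rank 1 in both replicates. No paired analysis was possible because there was 1 group. Depth is unknown, so a missing peak, as at CycD, does not show absence of binding.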
